A study of Homo sapiens with 18 samples.

Results

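Base excision repair begins with a DNA glycosylase, an enzyme that cuts 1 damaged or mismatched base from the sugar backbone. The gap is opened by an endonuclease for abasic sites, then filled and sealed by a polymerase and a ligase that the scaffold protein XRCC1 holds together. The glycosylases divide the work: UNG and SMUG1 remove uracil, MBD4 and TDG remove uracil or thymine paired with guanine (the product of deaminated cytosine or 5-methylcytosine), OGG1 removes 8-oxoguanine, MUTYH removes the adenine placed opposite it, and NTHL1 and NEIL1 remove oxidised bases. Dividing cells also use UNG to clear uracil that was incorporated during replication.

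The 8 glycosylases MBD4, TDG, UNG, SMUG1, MUTYH, OGG1, NTHL1 and NEIL1, the abasic-site endonuclease APEX1 and the scaffold XRCC1 were taken by name, 10 genes of the 58302 in the expression table. They were compared between PANC-1 cells, an established line from a pancreatic ductal carcinoma, that carried a lentiviral control (shCtrl) and PANC-1 cells that carried a lentiviral shRNA against NAT10 (shNAT10). The labels describe the control as a vector without a hairpin, whereas the oligo list of the study names a non-targeting shRNA, and which of them these libraries carried was not settled here. NAT10 is the enzyme that writes N4-acetylcytidine (ac4C) into RNA. RNA-seq covered 3 libraries of each group, and acRIP-seq, in which RNA fragments are pulled down with an antibody against ac4C, covered 3 IP and 3 input libraries of each group. The sources do not say whether the 3 libraries of a group came from separate cultures, so p-values measure the spread between these libraries, which may be technical, and they do not say which shRNA against NAT10 the libraries carried. Expression is given in FPKM, read counts scaled for the depth of the library and the length of the gene's longest annotated transcript. Comparisons of level between genes therefore depend on that length, whichever transcript is expressed.

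The target of the shRNA was low in every shNAT10 library. NAT10 was at 31.6, 27.7 and 28.6 FPKM in shCtrl and at 7.92, 8.43 and 7.90 FPKM in shNAT10, a log2 fold change of -1.84 ± 0.08 (SE, limma, adjusted p = 3.85e-05). The recovered depth was 15831720 to 23521762 reads per library. The second shCtrl library stood apart: the chi-square per degree of freedom over genes was 54.5 and 32.7 against the other shCtrl libraries, 7.84 between those, and 2.31 to 3.71 among the shNAT10 libraries. Of the ductal markers, KRT8 lay between 711 and 2009 FPKM and SOX9 between 36.3 and 43.8 FPKM in all 6 libraries, while KRT7 was low, at 4.52 to 10.7 FPKM. KRT18 and KRT19 lay between 159 and 1352 FPKM. The 4 keratins were lower in shNAT10, with log2 fold changes of -1.18 for KRT8, -0.84 for KRT18, -0.83 for KRT19 and -0.83 for KRT7 (limma, adjusted p of 0.00609 at most). EPCAM was higher, at 4.01 to 5.55 FPKM in shCtrl and at 21.1 to 24.2 FPKM in shNAT10, and SOX9 had a log2 fold change of 0.19 (limma, adjusted p = 0.0498). Markers of acinar cells, islet cells, leukocytes and endothelium were at 0 to 0.0557 FPKM.

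The parts of these transcripts that the ac4C antibody enriched are shown first, since the listed peaks of MBD4 are in shCtrl and those of TDG and XRCC1 in shNAT10. Each sequence is the reference transcript of GENCODE v29 on GRCh38, 5′ to 3′ on the strand of the gene, within 1 exon. Capitals mark the longest run of CNN triplets in the peak, a pattern that earlier work has linked to ac4C. The first MBD4 peak, on chromosome 3, joins chr3:129437720-129437921 and chr3:129437090-129437308 on the minus strand, all coding sequence. The second, chr3:129433110-129433320, holds 138 coding bases and 73 bases that are exonic only in non-coding transcripts.
MBD4 peak 1, first exon: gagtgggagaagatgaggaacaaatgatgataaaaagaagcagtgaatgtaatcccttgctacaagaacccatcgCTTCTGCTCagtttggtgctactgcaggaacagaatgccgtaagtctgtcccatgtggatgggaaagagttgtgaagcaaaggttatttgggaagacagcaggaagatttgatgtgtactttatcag
MBD4 peak 1, second exon: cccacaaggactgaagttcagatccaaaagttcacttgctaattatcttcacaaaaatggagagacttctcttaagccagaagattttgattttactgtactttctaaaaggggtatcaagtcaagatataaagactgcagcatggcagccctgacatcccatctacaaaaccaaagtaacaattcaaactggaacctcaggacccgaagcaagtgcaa
MBD4 peak 2: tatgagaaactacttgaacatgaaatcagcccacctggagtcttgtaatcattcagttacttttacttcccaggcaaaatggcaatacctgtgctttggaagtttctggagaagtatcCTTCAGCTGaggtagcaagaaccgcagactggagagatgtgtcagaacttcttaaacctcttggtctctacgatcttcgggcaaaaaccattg
The first TDG peak joins chr12:103977037-103977060 and chr12:103979831-103979956 on the plus strand, all coding sequence. The XRCC1 block, from the third of its 4 peaks, is chr19:43552017-43552246 on the minus strand, all coding.
TDG peak 1, first exon: CTCCTGCTCaggaaccagtgcaag
TDG peak 1, second exon: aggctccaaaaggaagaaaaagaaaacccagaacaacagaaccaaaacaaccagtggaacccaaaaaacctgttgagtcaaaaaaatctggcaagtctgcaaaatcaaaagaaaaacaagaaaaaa
XRCC1 peak 3, first exon: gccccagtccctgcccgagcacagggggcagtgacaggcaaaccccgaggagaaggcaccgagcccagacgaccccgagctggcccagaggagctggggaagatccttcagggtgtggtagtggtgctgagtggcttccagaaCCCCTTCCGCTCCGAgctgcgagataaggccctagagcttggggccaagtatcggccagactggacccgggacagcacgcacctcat

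In shNAT10 cells the uracil glycosylase UNG, the mismatch glycosylase TDG and the scaffold XRCC1 were higher, and the mismatch glycosylase MBD4, the 8-oxoguanine glycosylase OGG1 and the oxidised-pyrimidine glycosylase NTHL1 were lower. The uracil glycosylase SMUG1, the adenine glycosylase MUTYH and the endonuclease APEX1 did not pass the test, and NEIL1 was too low to be tested. Of the 10 genes, 9 passed the filter of at least 1 FPKM in at least 3 libraries. Of those 9, 3 were lower and 3 higher at an adjusted p under 0.05 in limma, beside 21.2% of the 12982 tested genes called lower and 20.8% called higher. The median log2 fold change was 0.029 over the 9 genes and -0.011 over all tested genes. None of the 9 moved by more than 1 on the log2 scale, beside 3.57% of the tested genes lower past -1 and 2.91% higher past 1. Rescaling to TPM moved the calls over all genes from 2751 lower and 2699 higher to 2075 lower and 3355 higher, and the median over all genes from -0.011 to 0.097. The 6 called genes kept their direction and call in TPM and in the other 14 alternatives. In bulk RNA, fewer cells that express a gene and less RNA per cell cannot be told apart.

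**Figure D1:**
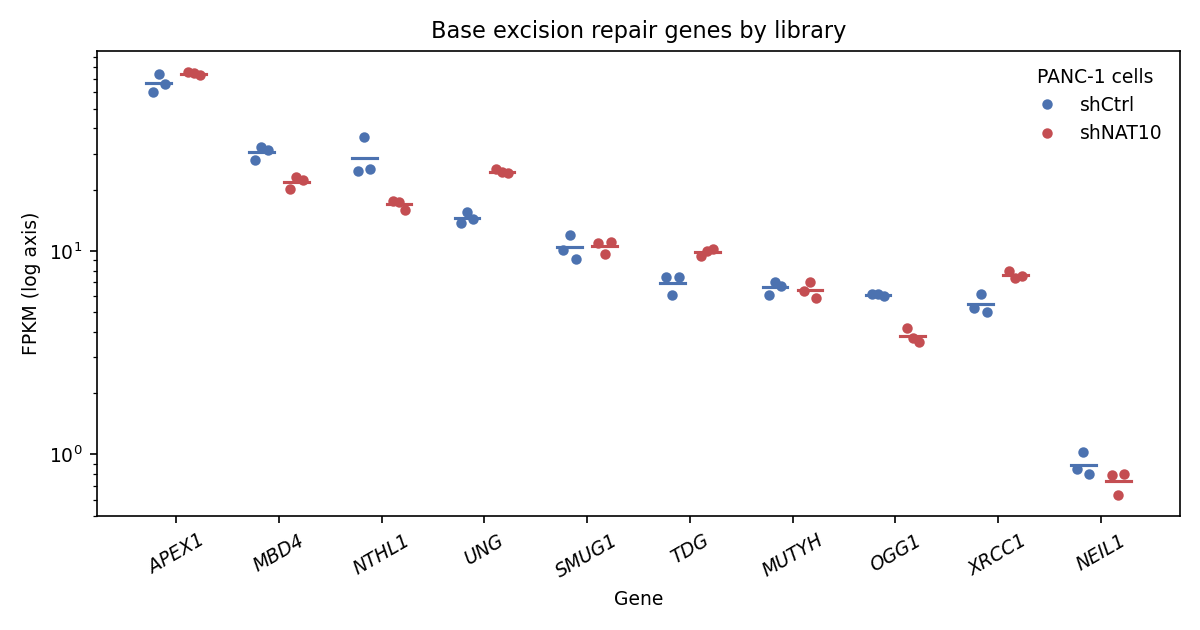
FPKM of the 10 genes (log axis) in each of the 3 shCtrl and 3 shNAT10 RNA-seq libraries, with 1 point per library and a bar at the group mean, ordered by the shCtrl mean. UNG, TDG and XRCC1 sit higher in all 3 shNAT10 libraries, MBD4, NTHL1 and OGG1 lower, and APEX1, SMUG1 and MUTYH overlap between the groups.

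The enzymes that act on uracil and on thymine mismatches moved in different directions. UNG (chr12:109097574-109110992, plus strand), the main uracil glycosylase of replicating cells, was at 13.7, 15.5 and 14.3 FPKM in shCtrl and at 25.1, 24.3 and 24.0 FPKM in shNAT10. All 3 shNAT10 libraries lay above all 3 shCtrl libraries, and the mean was 1.69 times as high. The log2 fold change was 0.75 ± 0.07 (SE, limma, adjusted p = 0.000393), and it lay between 0.71 and 0.80 when each library was left out in turn.

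TDG (chr12:103965804-103988874, plus strand), which removes thymine from G·T mispairs and also the oxidised forms of 5-methylcytosine that TET enzymes make, was at 7.43, 6.03 and 7.40 FPKM in shCtrl and at 9.48, 9.92 and 10.2 FPKM in shNAT10. The groups did not overlap, and the mean rose 1.42-fold. The log2 fold change was 0.50 ± 0.10 (SE, limma, adjusted p = 0.00712).

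MBD4 (chr3:129430944-129440179, minus strand), which joins a methyl-CpG binding domain to a glycosylase, went the other way. It was at 27.8, 32.3 and 31.4 FPKM in shCtrl and at 20.2, 23.2 and 22.3 FPKM in shNAT10. Every shNAT10 library lay below every shCtrl library, at a mean of 0.718 of the shCtrl mean. The log2 fold change was -0.48 ± 0.09 (SE, limma, adjusted p = 0.0052) and lay between -0.54 and -0.42 when each library was left out. The study itself singled out MBD4 from these RNA-seq and acRIP-seq data combined with ac4C-seq, a separate assay not used here. The fall of MBD4 in these libraries is therefore not independent evidence. The study also measured MBD4 mRNA by qRT-PCR, which was not examined here. Its stated fold-change cutoff, if meant for the RNA-seq, was not reached by the fall found here. IFT122, whose exons cover 4.29% of the exon bases of MBD4 on the opposite strand, was higher (log2 fold change 0.31, limma, adjusted p = 0.014).

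SMUG1 (chr12:54121277-54189008, minus strand), the uracil glycosylase that also takes 5-hydroxymethyluracil, was at 10.1, 11.9 and 9.13 FPKM in shCtrl and at 10.9, 9.67 and 11.1 FPKM in shNAT10. The groups overlapped, and the 95% interval of the log2 fold change ran from -0.24 to 0.30 (limma, adjusted p = 0.859). Its sign turned without shCtrl replicate 3 (-0.059) and without shNAT10 replicate 3 (-0.0093).

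In FPKM, the leading RNA among the uracil and thymine glycosylases passed from MBD4 to UNG. The shNAT10 ranges were close, with UNG at 24.0 FPKM or more and MBD4 at 23.2 FPKM or less. In recovered reads, not scaled for length, UNG had 888, 1057 and 948 in shNAT10 and MBD4 had 792, 1116 and 977. The summed FPKM of UNG, SMUG1, TDG and MBD4 was 62.3 ± 3.38 in shCtrl and 66.8 ± 1.01 in shNAT10 (SD, n = 3 each). MBD4 gave 48.9% ± 1.66 of that sum in shCtrl and 32.8% ± 1.90 in shNAT10. UNG gave 23.3% ± 0.319 and 36.7% ± 1.41. TDG gave 11.2% ± 1.81 and 14.8% ± 0.320, and SMUG1 16.6% ± 1.77 and 15.8% ± 1.21. These shares add to a fixed total and are given without a test.

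**Figure D2:**
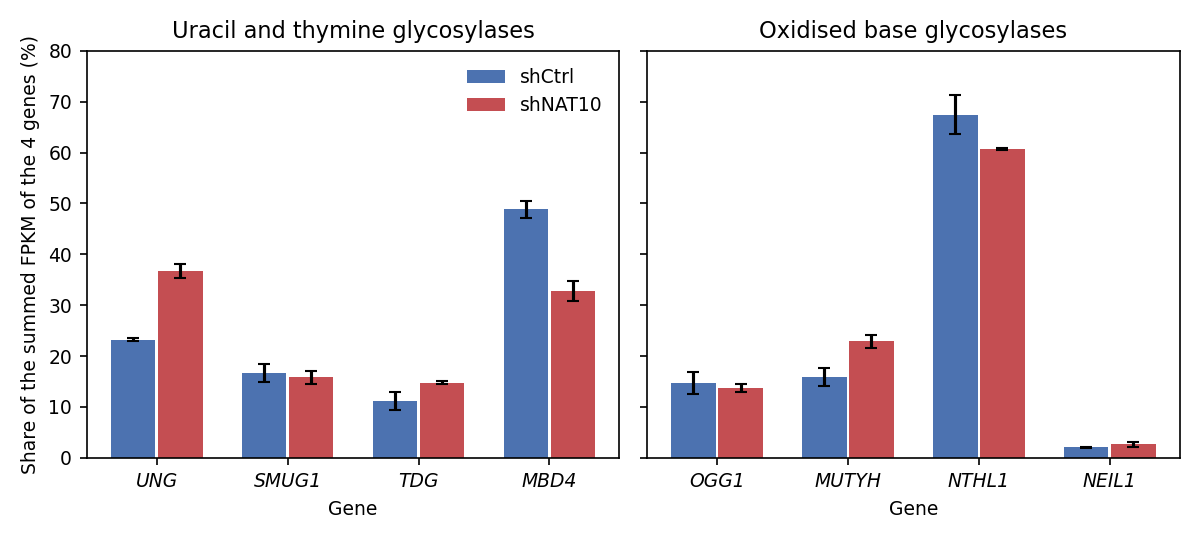
Share of the summed FPKM (percent, mean and SD, n = 3 libraries per group) of the 4 uracil and thymine glycosylases at left and the 4 oxidised-base glycosylases at right, in shCtrl and shNAT10. MBD4 falls from 48.9% to 32.8% while UNG rises from 23.3% to 36.7%, and NTHL1 gives most of the summed FPKM of the oxidised-base set in both groups. The shares depend on the transcript length by which each FPKM is divided.

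Among the enzymes that act on oxidised bases, OGG1 and NTHL1 were lower, MUTYH did not pass the test, and NEIL1 was under the filter. OGG1 (chr3:9749944-9788219, plus strand) was at 6.12, 6.14 and 5.99 FPKM in shCtrl and at 4.16, 3.74 and 3.58 FPKM in shNAT10. The groups were well apart, with a shNAT10 mean of 0.63 of the shCtrl mean. The log2 fold change was -0.66 ± 0.09 (SE, limma, adjusted p = 0.00139). CAMK1, a calcium-dependent kinase encoded on the other strand, overlaps 25.0% of the exon bases of OGG1. CAMK1 was lower as well, at 3.59 ± 0.784 FPKM in shCtrl and 2.04 ± 0.362 in shNAT10 (SD, n = 3 each, log2 fold change -0.78, limma, adjusted p = 0.017). Whether the counting used the strand is not given in the sources used here, and its part in the OGG1 value was not tested.

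NTHL1 (chr16:2039815-2047866, minus strand), which removes thymine glycol and other oxidised pyrimidines, was at 24.7, 36.3 and 25.1 FPKM in shCtrl and at 17.6, 17.5 and 15.8 FPKM in shNAT10. The groups did not overlap, and the high shCtrl value is that of the library that stood apart. The log2 fold change was -0.73 ± 0.15 (SE, limma, adjusted p = 0.00842), and it was -0.55 without that library (limma, adjusted p = 0.000349). TSC2 overlaps 16.5% of its exon bases on the opposite strand and had a log2 fold change of 0.094 (limma, adjusted p = 0.282).

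MUTYH (chr1:45329163-45340470, minus strand) was at 6.10, 7.02 and 6.74 FPKM in shCtrl and at 6.35, 7.04 and 5.83 FPKM in shNAT10. The groups overlapped, and the 95% interval of the log2 fold change ran from -0.28 to 0.19 (limma, adjusted p = 0.727). Its sign turned in TPM (0.060) and without shNAT10 replicate 3 (0.017).

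NEIL1 (chr15:75346955-75357114, plus strand) was at 0.843, 1.03 and 0.803 FPKM in shCtrl and at 0.790, 0.630 and 0.797 FPKM in shNAT10, which is 46 to 78 recovered reads per library. The groups were separated only by the gap between 0.803 and 0.797 FPKM. It did not pass the filter. Tested without a filter, its log2 fold change was -0.24 ± 0.22 (SE, limma, adjusted p = 0.533).

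The summed FPKM of OGG1, MUTYH, NTHL1 and NEIL1 was 42.3 ± 7.10 in shCtrl and 27.9 ± 1.63 in shNAT10 (SD, n = 3 each). NTHL1 gave 67.4% ± 3.88 of it in shCtrl and 60.7% ± 0.218 in shNAT10. MUTYH, whose own level did not pass the test, gave 15.8% ± 1.79 and 22.9% ± 1.29. OGG1 gave 14.6% ± 2.16 and 13.7% ± 0.724, and NEIL1 2.11% ± 0.107 and 2.66% ± 0.444. These shares depend on the length used for scaling, 1067 bases for NTHL1 and 4977 for OGG1. In recovered reads, not scaled for length, NTHL1 had 457, 784 and 631 in shCtrl and OGG1 had 528, 618 and 701. In shNAT10 NTHL1 had 297, 362 and 299 reads and OGG1 had 328, 362 and 315.

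The steps after base removal are served by APEX1, which cuts the backbone at the abasic site, and XRCC1, which gathers the repair polymerase and ligase at the break. APEX1 (chr14:20455191-20457772, plus strand) was the most abundant of the 10 genes in both groups, at 60.5, 74.2 and 65.7 FPKM in shCtrl and at 75.7, 74.6 and 72.7 FPKM in shNAT10. The groups overlapped through the second shCtrl library, and the 95% interval of the log2 fold change ran from -0.042 to 0.36 (limma, adjusted p = 0.174). It was called higher without that library (log2 fold change 0.24, limma, adjusted p = 0.00725) and in TPM (0.27, adjusted p = 0.00952), and not in the other 13 alternatives, whose adjusted p-values ran up to 0.369.

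XRCC1 (chr19:43543040-43580473, minus strand) was at 5.23, 6.15 and 4.98 FPKM in shCtrl and at 7.98, 7.36 and 7.49 FPKM in shNAT10. The groups did not overlap, and the mean rose 1.40-fold. The log2 fold change was 0.48 ± 0.10 (SE, limma, adjusted p = 0.0085), with an adjusted p of up to 0.0413 over the alternatives.

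The 6 called genes are those among the 9 tested whose 3 values of each group did not overlap, as was the case for 56.5% of all tested genes. For each of the 6, and for NEIL1, the two-sided exact permutation p was 0.1, the smallest that 3 against 3 libraries allow. The order of levels in FPKM, which depends on the transcript length used for scaling, shifted with these changes. In shCtrl it ran APEX1, MBD4, NTHL1, UNG, SMUG1, TDG, MUTYH, OGG1, XRCC1 and NEIL1. MBD4 overlapped NTHL1 in range there, and so did each pair of neighbours from TDG to XRCC1. In shNAT10 the order was APEX1, UNG, MBD4, NTHL1, SMUG1, TDG, XRCC1, MUTYH, OGG1 and NEIL1, and SMUG1 and TDG were the only neighbours whose ranges overlapped.

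The rest of the pathway was read from a list of 37 further genes, of which 35 were tested. Of these, 9 were higher, 5 were lower and 21 did not pass the test (limma, adjusted p under 0.05), with a median log2 fold change of 0.048. Over all tested genes 20.8% were higher and 21.2% lower, so these counts lay near the background. The 9 were the glycosylase NEIL3, the end-processing enzyme TDP1, the break sensor PARP2, the polymerase POLL and the replication-linked genes PCNA, POLD1, POLE, RFC1 and RFC5. The 5 were the alkyladenine glycosylase MPG, the endonuclease APEX2, the end-processing enzyme TDP2, PARP3 and the polymerase epsilon subunit POLE3. The count of 9 fell to 3 without shNAT10 replicate 2, to 4 without shCtrl replicate 3 and to 4 without shNAT10 replicate 3. It rose to 11 without shCtrl replicate 2 and to 12 in TPM.

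POLE3, a small histone-fold subunit of polymerase epsilon, had the greatest change in size among the tested pathway genes. It was at 33.0, 33.0 and 31.8 FPKM in shCtrl and at 12.4, 13.0 and 12.5 FPKM in shNAT10, a log2 fold change of -1.36 ± 0.06 (SE, limma, adjusted p = 4.53e-05). C9orf43 covers 3.99% of its exon bases on the other strand.

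MPG, which removes alkylated purines, was at 26.5, 41.3 and 27.8 FPKM in shCtrl and at 19.2, 18.1 and 16.0 FPKM in shNAT10 (log2 fold change -0.81, limma, adjusted p = 0.00941). Like NTHL1 it was highest in the second shCtrl library, and NPRL3 covers 27.3% of its exon bases on the other strand. NEIL3, a glycosylase of proliferating cells, was at 1.58, 1.89 and 1.75 FPKM in shCtrl and at 2.33, 3.01 and 2.80 FPKM in shNAT10 (log2 fold change 0.61, limma, adjusted p = 0.0137, up to 0.0599 with a library left out). NEIL2 was at 4.96, 5.40 and 4.97 FPKM and at 4.02, 4.64 and 4.30 FPKM, and did not pass the test (log2 fold change -0.24, limma, adjusted p = 0.0713).

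PCNA, the sliding clamp of replication and long-patch repair, was at 89.8, 107 and 95.3 FPKM in shCtrl and at 138, 140 and 141 FPKM in shNAT10 (log2 fold change 0.52, limma, adjusted p = 0.00227). RFC1, the large subunit of the clamp loader, had a log2 fold change of 0.64 and PARP3, a break-sensing ADP-ribosyltransferase, of -0.56 (limma, adjusted p = 0.00523 and 0.00144). The short-patch polymerase POLB, the ligase LIG3 that pairs with XRCC1, and the break sensor PARP1 did not pass the test. POLB had a log2 fold change of -0.18, LIG3 of 0.17 and PARP1 of -0.074 (limma, adjusted p = 0.171, 0.153 and 0.388).

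UNG and PCNA are known to be expressed with S phase, so S-phase genes are given beside them. Of 19 such genes, all tested, 11 were higher and 2 lower, with a median log2 fold change of 0.33, beside 20.8% higher and 21.2% lower over all tested genes and a median of -0.011. E2F1 had a log2 fold change of 0.90 and RRM1 of 0.85, while RRM2 was at -1.20 and CCNE2 at -1.18 (limma, adjusted p of 0.000988 at most). Their part in the values of UNG and PCNA was not tested.

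**Figure D3:**
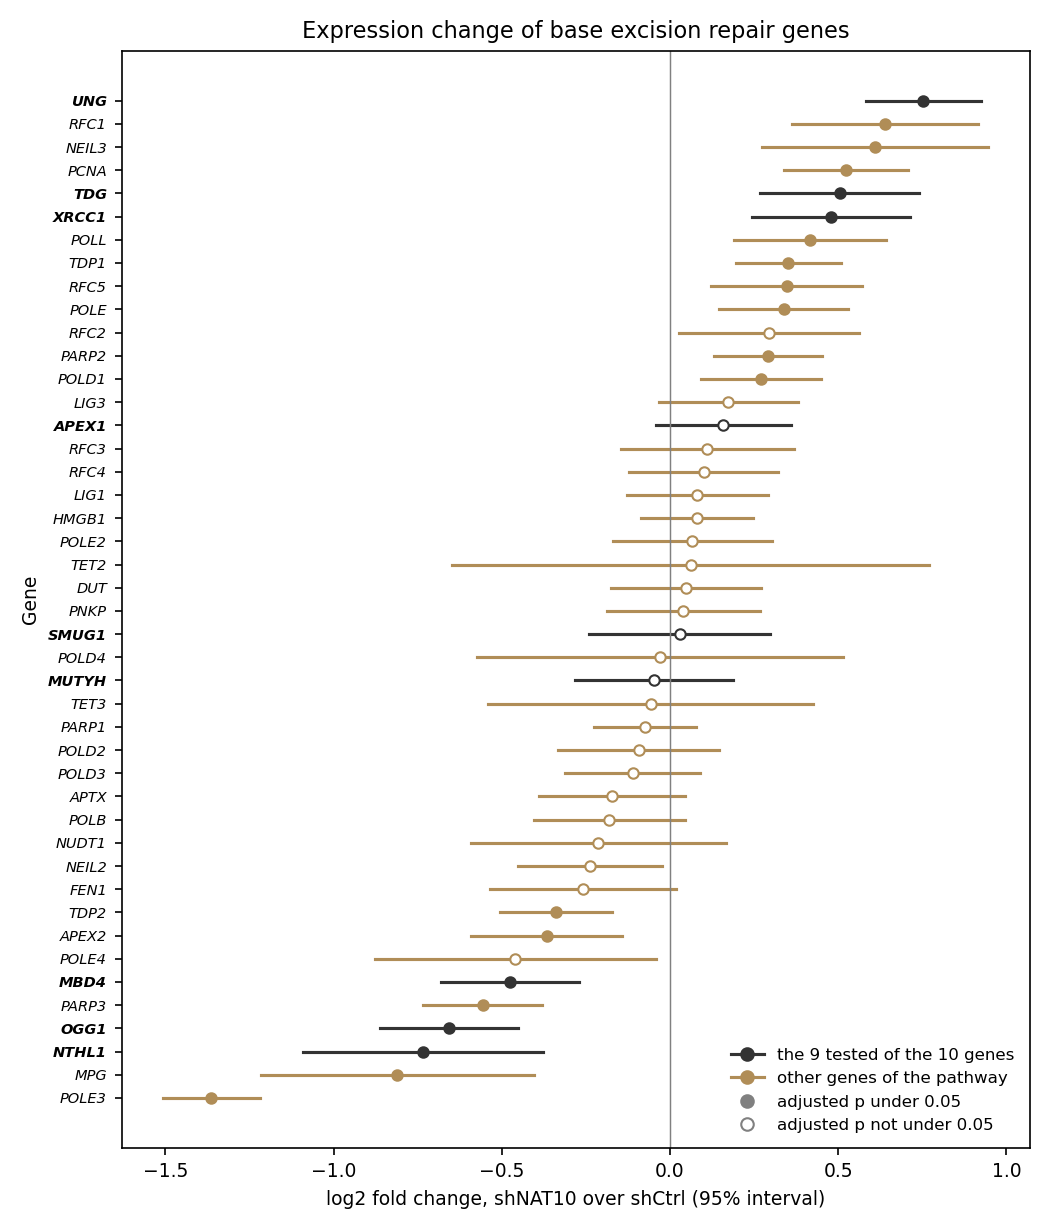
log2 fold change of FPKM plus 0.1, shNAT10 over shCtrl, with its 95% interval from limma (3 libraries per group), for the 9 tested of the 10 genes in black with bold names and the 35 tested pathway genes in brown, where filled points have an adjusted p under 0.05. UNG at 0.75 and POLE3 at -1.36 are the ends of the range, and the 9 genes lie on both sides of 0.

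The acRIP-seq peaks came as 1 pooled list per group, so they have no replicates and no test, and the reads behind a peak are not in the lists. The shCtrl list held peaks on 4 of the 10 genes, 11 peaks in all: 2 on MBD4, 3 on OGG1, 3 on NEIL1 and 3 on APEX1. The shNAT10 list held peaks on 8 of the 10, 18 peaks in all: 2 on TDG, 1 each on UNG, SMUG1 and MUTYH, 3 on OGG1, 2 on NEIL1, 4 on APEX1 and 4 on XRCC1. NTHL1 had a peak in neither list. Over all tested genes, 49.6% had a peak in shCtrl and 47.7% in shNAT10.

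MBD4 alone of the 10 had peaks in shCtrl and none in shNAT10, as had 15.8% of all tested genes. The study chose MBD4 partly from these acRIP-seq data, so its peak pattern is not independent evidence either. TDG, UNG, SMUG1, MUTYH and XRCC1 had peaks in shNAT10 and none in shCtrl, as had 13.9% of all tested genes. OGG1, NEIL1 and APEX1 had peaks in both lists. Among the 37 further pathway genes the split was 13 in both lists, 7 in shCtrl only, 2 in shNAT10 only and 15 in neither. Over all 12982 tested genes it was 4377 in both, 2056 in shCtrl only, 1810 in shNAT10 only and 4739 in neither. A level of RNA that differs between groups can move whether a peak is called, and its part was not tested: MBD4 was lower in shNAT10, UNG, TDG and XRCC1 were higher, and SMUG1 and MUTYH did not pass the test.

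The peaks of OGG1 and most of those of NEIL1 coincided with peaks listed for genes on the other strand, and from the lists alone they cannot be told apart. All 6 OGG1 peaks lay in an exon of a non-coding OGG1 transcript, and each shared bases with a peak listed for CAMK1 on the opposite strand. In shCtrl the fold enrichment of the first OGG1 peak was 15.6 and that of the CAMK1 peak at the same place also 15.6, and for the second pair both were 310. The other 4 pairs differed, at 104 for OGG1 and 263 for CAMK1 in shCtrl, and at 75.4 and 66.1, 1470 and 633, and 2790 and 2250 in shNAT10. For NEIL1, the 3 shCtrl peaks and 1 of the 2 shNAT10 peaks lay in its 3′ UTR and shared bases with peaks of MAN2C1, a mannosidase gene on the opposite strand at 12.1 ± 0.817 FPKM in shCtrl and 11.1 ± 1.04 in shNAT10 (SD, n = 3 each). The fold enrichments of 3 of those 4 pairs were the same, at 843, 926 and 2210, and the remaining pair had 63.3 for NEIL1 and 69.0 for MAN2C1. The first XRCC1 peak, at 145, likewise shared 142 bases with a peak of the antisense gene L34079.3, at 71.9.

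Without such peaks, the shCtrl list held 5 peaks on 2 of the 10 genes, MBD4 and APEX1, and the shNAT10 list held 13 peaks on 7 of the 10. This count was chosen after the peaks had been seen. The peaks of other genes were not filtered in this way, so no share over all genes stands beside it. NEIL1 then had a peak in shNAT10 only, and OGG1 in neither list.

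The fold enrichment of a peak is a ratio of IP over input within its own list and is not on 1 scale between lists, whose medians were 49.3 in shCtrl and 45.2 in shNAT10. The MBD4 peaks, whose sequences are printed above, had fold enrichments of 208 over 421 bases and 434 over 211 bases, at the 72.7th and 82.4th percentile of the shCtrl list. UNG had 1 peak of 270 bases in its 3′ UTR (chr12:109110395-109110664), with a fold enrichment of 205 and CCACTGCCCCCT as its longest CNN run. SMUG1 had 1 peak with a fold enrichment of 1850, on UTR and non-coding exon bases, and MUTYH had 1 of 305, with 157 of its 239 bases coding.

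TDG had the coding peak shown above at a fold enrichment of 47.6 and a second at 7.54. The 4 peaks of XRCC1 had fold enrichments of 145, 78.5, 33.2 and 309, from the 5′ end of the gene to the 3′ end, and the last covers 299 coding bases in 4 exons. APEX1, the most abundant of the genes, had no peak above the median fold enrichment of its list, at 17.3, 18.6 and 10.9 in shCtrl and at 8.68, 41.3, 7.87 and 5.85 in shNAT10.

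Of the 11 shCtrl peaks, 7 shared at least 1 base on the same strand with a shNAT10 peak of the same gene, and so did 7 of the 18 shNAT10 peaks. Over all genes, 25.5% of the shCtrl peaks and 27.2% of the shNAT10 peaks did so. Without the peaks shared with another gene, 3 of the 5 shCtrl peaks and 3 of the 13 shNAT10 peaks remained in overlap, all on APEX1. The shares over all genes were taken without that filter and are no match for these counts. The 7 were 3 on OGG1, 1 on NEIL1 and 3 on APEX1, where 1 pair shared a single base. Placed by midpoint on the longest of each gene's coding transcripts, 4 of the shCtrl peaks and 7 of the shNAT10 peaks lay in the CDS. A search of the transcript strand for CNNCNNCNNCNN found it in 7 of the 11 shCtrl peaks and 11 of the 18 shNAT10 peaks. Among those of 150 to 360 bases it was in 7 of 10 and 11 of 18. Of the listed peaks of that length that lie within the longest coding transcript of their gene, 9015 in shCtrl and 8439 in shNAT10, 49.6% and 49.3% held it. Neither MBD4 peak held it, each having a longest run of 3 CNN. Neither TDG peak held it either, with longest runs of 3 and 2. Of the 4 XRCC1 peaks, from the 5′ end, the longest runs were 6, 4, 5 and 2. The run of 5 is in the block shown above, and the peak with a run of 2 had the highest fold enrichment of the 4, at 309.

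The exons of other annotated genes also overlap those of the 10. TOE1, on the opposite strand, covers 14.1% of the exon bases of MUTYH and was lower (log2 fold change -0.48, limma, adjusted p = 0.00717). PIP4P1 covers 2.86% of those of APEX1 and was lower (-0.65, limma, adjusted p = 0.00135), and TADA3 covers 4.08% of those of OGG1 (-0.24, limma, adjusted p = 0.115). FLJ12825 and FAM242C each cover 2.97% of those of SMUG1, with FLJ12825 at 0.57 FPKM in shCtrl and 1.19 in shNAT10. L34079.1, L34079.2 and L34079.3 cover 6.48%, 1.97% and 15.5% of those of XRCC1 and were at 0 to 0.317 FPKM. Besides MAN2C1, at 26.4%, AC068338.3 and MIR631 cover 2.98% and 1.08% of those of NEIL1. For TDG and UNG no other exon overlaps.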

How the data were processed

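The 10 genes and all lists were chosen with earlier results of these data known. For RNA-seq, the authors deposited FPKM values, 1 column per library, and per the labels the tools were HISAT2 2, HTSeq 0.11.0 and DESeq2 1.22.2 on hg38/GRCh38. For acRIP-seq, the authors deposited 1 peak list per group, in which enrichment is a ratio of IP to input. The deposited lists also give a p-value per peak and, in a further column treated as a score without a fixed range, its log10. The peak caller and the strand setting of the counting are not given in the sources used here.

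The test was limma (version 3.58.1, under R 4.3.3) with a trended prior variance, on log2(FPKM + 0.1). Because of the added 0.1, fold changes of low genes are understated. The p-values were adjusted by Benjamini-Hochberg over the 12982 genes with at least 1 FPKM in at least 3 libraries. Calls are at an adjusted p under 0.05. Whole reads were recovered from the FPKM and the longest transcript of GENCODE v29, with 96.9% of values above 0 within 0.01 of a whole read. Depths were 15831720 to 23521762 reads.

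Named were the 10 genes, NAT10, pathway genes called with a log2 fold change of at least 0.5 in size, MPG, NEIL2 and NEIL3, and genes with exons over those of the 10. Further pathway genes, S-phase genes and markers were named from their lists after their values were seen. Peak midpoints were placed on the longest coding transcript, and coordinates are 1-based on GRCh38. The alternatives were a pseudocount of 1, no filter, a minimum of 5 FPKM, quantile normalization, median centring, TPM, a replicate block, no mean-variance trend, limma's voom on recovered reads, each library left out, and for peaks the 50% with the highest fold enrichment or lowest p-values, a 50% reciprocal overlap and the transcript with the longest CDS. Some single items are not reported here. Leaving out peaks shared with another gene was chosen after seeing the data. The steps were tested on simulated data. Scripts used Python 3.11.15, NumPy 2.4.6, pandas 2.3.3 and matplotlib 3.10.9.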

Additional observations from a re-analysis of the deposited data

How the results depend on the processing

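UNG, TDG, XRCC1, MBD4, OGG1 and NTHL1 kept their direction and call in the 15 alternatives, and the counts of the 10 genes stayed at 3 lower and at 3 or 4 higher. SMUG1 turned sign without shCtrl replicate 3 (-0.059) and without shNAT10 replicate 3 (-0.0093), and MUTYH in TPM (0.060) and without shNAT10 replicate 3 (0.017), and with each library left out SMUG1 ran from -0.059 to 0.13 and MUTYH from -0.12 to 0.017. APEX1 became called in TPM (0.27) and without shCtrl replicate 2 (0.24). With each library left out the count of further pathway genes called higher ran from 3 to 11, and fewer libraries enter those fits. In TPM that count was 12. The correlations of same-numbered libraries were -0.043, 0.064 and 0.11, beside -0.12 to 0.063 for libraries with unlike numbers. With values this small and 3 libraries per group, pairing by replicate number cannot be settled. With the replicate block, the calls over all genes were 2603 lower and 2524 higher, and the 10 genes had 3 lower and 3 higher. The overlapping peaks, 7 of each list, became 3 and 3 among the 50% with the highest fold enrichment, 2 and 2 among the 50% with the lowest p-values, and 4 and 4 with a reciprocal overlap of 50%, as fewer peaks or pairs qualify. Without peaks shared with another gene they were 3 and 3, and the genes with a shCtrl peak went from 4 to 2. Over all genes, leaving out shNAT10 replicate 3 gave 1765 lower and 1785 higher calls, and leaving out shCtrl replicate 2 gave 3318 and 3303. Depth limits NEIL1 most, at 46 to 78 reads per library.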
